A study of Mus musculus with 6 samples.

Results

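The aldo-keto reductases of the Akr1c and Akr1b subfamilies were followed in normal livers and liver tumors of C3H mice. The group holds 10 genes, Akr1c6, Akr1c12, Akr1c13, Akr1c14, Akr1c18, Akr1c19, Akr1c20, Akr1c21, Akr1b7 and Akr1b8, which the array measured with 11 of its 55681 probes, 1 for each gene and 2 for Akr1c20. They were matched by the probe's gene name or by the current symbol of its accession, of 34741 gene names on the array. The family was selected on measured values, since Akr1c18 had the highest tumor signal among the genes that were dim in normal liver, so the values of Akr1c18 are given as a description and without a test. Total RNA came from 3 normal livers and from 3 macroscopic liver tumors with a Ha-ras mutation. All animals were male C3H/HeN mice of 74 to 75 weeks, F2 offspring of an untreated control line kept on a standard diet, and C3H males develop such tumors spontaneously. Each tissue was hybridised with Cy3 label to its own array, with slide 1 holding the 3 normal livers and slide 2 the 3 tumors, so that slide, scan and tissue cannot be told apart. An expression value here is the processed signal divided by the array's 75th percentile, a percentile of 123.857 to 176.828 in the normal group and of 171.02 to 182.627 in the tumor group.

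Aldo-keto reductases are cytosolic enzymes that use NADPH or NADH to turn aldehydes and ketones into alcohols. The Akr1c enzymes act mainly on steroids and prostaglandins, and several of them are abundant in the liver, where they take part in the clearance of steroid hormones. The Akr1b enzymes include aldose reductase and relatives that reduce lipid aldehydes.

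Akr1c18 encodes the enzyme that inactivates progesterone by reducing it to its hydroxylated, weakly active form, best known from the ovary at the end of pregnancy. Akr1b7, first described in the vas deferens and adrenal gland, reduces isocaproaldehyde, a by-product of steroid synthesis. Their promoters are shown because they are the members with higher values in the tumors. Each sequence runs from 250 bases before to 50 bases after the RefSeq start site on GRCm38.p6, 5′ to 3′ on the gene's own strand. Akr1c18 lies on the minus strand at chr13:4150597-4150896 and Akr1b7 on the plus strand at chr6:34412112-34412411, and capitals mark the letters AGGTCA (nuclear receptor half-site) or TGTTCT (steroid receptor half-site) on either strand.
Akr1c18: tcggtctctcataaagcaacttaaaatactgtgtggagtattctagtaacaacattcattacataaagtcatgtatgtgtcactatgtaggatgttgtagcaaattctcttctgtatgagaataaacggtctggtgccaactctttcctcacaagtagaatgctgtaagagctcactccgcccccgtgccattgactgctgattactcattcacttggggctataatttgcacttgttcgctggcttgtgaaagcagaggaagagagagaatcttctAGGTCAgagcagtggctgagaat
Akr1b7: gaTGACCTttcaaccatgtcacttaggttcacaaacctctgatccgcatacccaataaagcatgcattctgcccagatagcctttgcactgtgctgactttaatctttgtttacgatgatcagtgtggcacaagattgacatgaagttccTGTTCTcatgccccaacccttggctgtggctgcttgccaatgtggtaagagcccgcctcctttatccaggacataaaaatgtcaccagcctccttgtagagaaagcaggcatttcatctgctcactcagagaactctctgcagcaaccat

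The tables held promoters for 9 of the 10 members, all but Akr1c20. AGGTCA occurred in 2 of these 9, at position 28 after the start of Akr1c18 and, on the opposite strand, at position -248 of Akr1b7. It occurred in 16.3% of all 32851 promoters of the same length. TGTTCT occurred in the promoter of Akr1b7 alone among the 9, at -100, and in 19.0% of all promoters. The Stat element TTCNNNGAA was found in Akr1c19 alone, at -24, and in 8.30% of all promoters, and the antioxidant response element core TGACNNNGC also in Akr1c19 alone, at 8 on the opposite strand, and in 12.4% of all promoters. TATAAA was present in Akr1c6 at -164 and, on the opposite strand, in Akr1b8 at -159. Both lie far upstream of the usual place of a TATA box, and 13.6% of all promoters held these letters. The AP-1 element TGANTCA, present in 7.81% of all promoters, was in none of the 9. All 6 motifs were searched on both strands, no 2 of the matches in these promoters overlapped, and a match is a description of letters and not of binding.

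The promoters of Akr1c12 and Akr1c13 are shown because they are nearly the same, while their genes are measured by separate probes. Akr1c12 lies on the minus strand at chr13:4279350-4279649 and Akr1c13 on the plus strand at chr13:4190937-4191236, and capitals mark the bases that differ or have no partner in the alignment of the pair.
Akr1c12: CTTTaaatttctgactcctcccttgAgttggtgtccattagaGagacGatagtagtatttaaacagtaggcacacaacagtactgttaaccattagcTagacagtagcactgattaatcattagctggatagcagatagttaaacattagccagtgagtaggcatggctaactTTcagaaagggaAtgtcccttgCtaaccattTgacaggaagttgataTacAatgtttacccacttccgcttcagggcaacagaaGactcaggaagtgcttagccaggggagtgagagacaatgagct
Akr1c13: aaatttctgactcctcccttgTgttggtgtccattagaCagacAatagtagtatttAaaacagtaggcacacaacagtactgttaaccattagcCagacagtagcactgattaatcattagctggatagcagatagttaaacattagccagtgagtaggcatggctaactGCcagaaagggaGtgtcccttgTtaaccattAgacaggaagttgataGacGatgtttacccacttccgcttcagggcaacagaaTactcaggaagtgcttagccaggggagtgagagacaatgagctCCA
The pair had 284 of 300 bases in common (94.7%). The next closest pairs, Akr1c19 with either of them, had 195, in a gapped alignment that also matches bases between unrelated sequences. None of the 6 motifs occurred in either promoter.

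The 8 Akr1c genes lie together on chromosome 13 in the order Akr1c14, Akr1c18, Akr1c13, Akr1c19, Akr1c12, Akr1c6, Akr1c20 and Akr1c21, followed by Akr1e1. The family is closely related in sequence, so shared letters between probes were counted. Over the probes of the Akr genes, the longest run that 2 genes' probes shared was 11 bases, between Akr1c6 and Akr1c20. The stretches of 30 of the 60 probe bases that hold this run, in capitals, are shown because it was the longest.
Akr1c6: TGAATACTAACtggaggtccattttgtgcc
Akr1c20: atttttggaTGAATACTAACatggaggtcc
The count compares probes with probes and not with transcripts, so it cannot show how separate the readings of any members are. Binding of a probe to the transcripts of other members was not tested.

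Among the Akr1c and Akr1b genes the 2 groups of tissue differed in both directions. Akr1c18 changed from a signal at background in every normal liver to a strong signal in every tumor, and Akr1b7 was also at background in every normal liver and above it in every tumor. Of the 9 members that passed the filter on dim probes, Akr1c18 and Akr1b7 did so through the tumors alone, so they had to differ and are left out of the count of calls. Of the other 7, well above background on all 6 arrays, Akr1c6, Akr1c12, Akr1c14, Akr1c19 and Akr1c20 were lower in the tumors at limma's adjusted p under 0.05, and Akr1c13 and Akr1b8 did not pass the test. Over all tested probes 33.1% were called, and over all tested genes 34.1% (13.1% higher and 21.0% lower). The groups did not overlap in any of the 7 members well above background on all 6 arrays, taking the brighter probe of Akr1c20, nor in 51.8% of all tested genes. The 5 lower calls became 3 without normal liver 1 or 3 and 1, that of Akr1c20, without normal liver 2. The rule that chose the family used this contrast, and nothing is read from these counts. The log2 fold changes of the same 7 members ran from -2.09 to 0.20, beside a median of -0.13 over all tested genes. The tenth member, Akr1c21, a steroid dehydrogenase described in the kidney, stayed below the well-above-background limit on all 6 arrays, with expression values of 0.0279 to 0.0845 in normal livers and 0.0244 to 0.0423 in tumors.

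**Figure D1:**
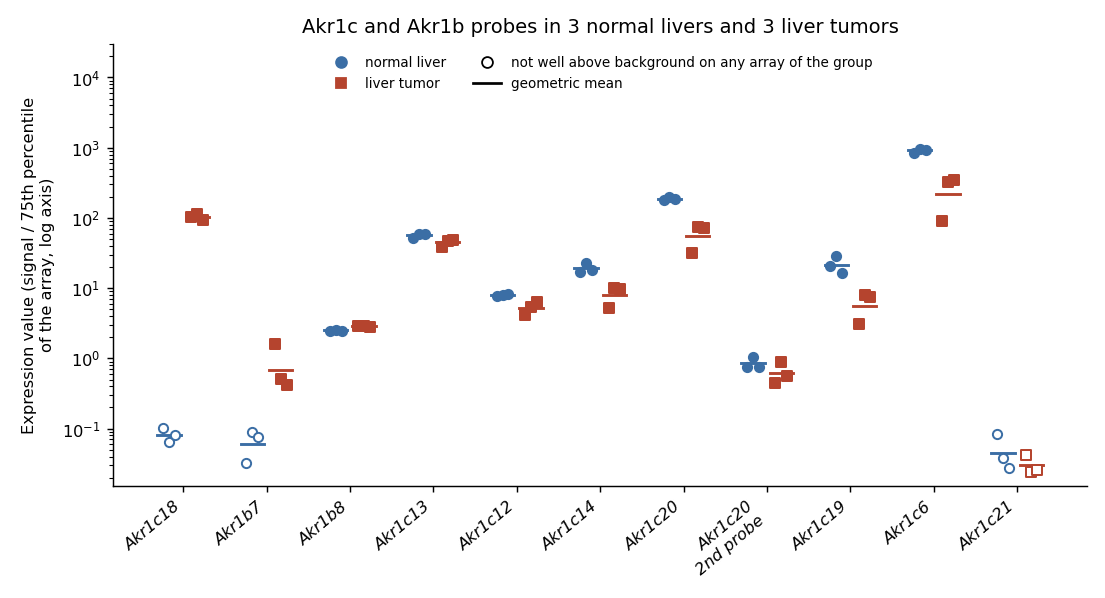
Expression values (processed signal divided by the 75th percentile of the array, log axis) of the 11 Akr1c and Akr1b probes in 3 normal livers (blue circles) and 3 liver tumors (red squares). Lines are geometric means, open symbols mark a group with no array well above background, and heights of different probes cannot be compared. Akr1c18 ranges from 0.0651 to 0.101 in normal livers and from 94.1 to 112 in tumors.

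Akr1c18 had expression values of 0.101, 0.0651 and 0.0803 in normal livers 1, 2 and 3 and of 104, 112 and 94.1 in tumors 1, 2 and 3. None of the normal livers was well above background, all tumors were, and the tumors lay close to each other. The mean was 0.0823 ± 0.0182 in normal livers and 103.5 ± 9.02 in tumors (SD, n = 3 each). Because the normal values were not well above background, the fold is a bound, and the tumors had at least 909-fold more Akr1c18 signal, 9.83 on the log2 scale. This bound takes for each normal liver the higher of the probe's own value and the lowest value of any probe well above background on that array, which was 0.107 to 0.125. The measured log2 difference was 10.32, and 7.62 when the background was corrected with normexp and an offset of 50, which draws dim signals together. The normexp value is less than the bound, so the bound holds for the processed signal only. Of the 474 genes detected well above background in all tumors but not in any normal liver, Akr1c18 had the highest tumor geometric mean, 103, followed by Erich4 with 36.9 and Gldn with 23.9. These are the values that chose the family. Its probe begins with ccaatcactgcttagcaactcacccccagt and shared no run longer than the 11 bases above with any other Akr probe.

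Akr1b7 had expression values of 0.0325, 0.0890 and 0.0760 in normal livers 1, 2 and 3, none of them well above background. The tumors gave 1.61, 0.503 and 0.413, all well above background and all higher than the normal livers. Tumor 1 was more than the other two tumors together. The difference was at least 6.11-fold, 2.61 on the log2 scale. The measured log2 fold change was 3.52 ± 0.60 (standard error), and 2.92 without tumor 1. Since the probe passed the filter through the tumors alone, the fit over all probes without a filter is the one to read, and there limma's adjusted p was 0.0256 (0.00733 with the filter). The log2 fold change was 1.21 with normexp, less than the bound. On linear values, where tumor 1 weighs most, it did not pass the test that the methods name.

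Akr1b8, a relative of aldose reductase induced by fibroblast growth factor, differed little. Its expression values were 2.45, 2.56 and 2.48 in normal livers and 2.90, 2.90 and 2.79 in tumors. The tumors lay above the normal livers, with a log2 fold change of 0.20 (95% interval -0.04 to 0.43, limma's adjusted p = 0.166).

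The largest fall among the members was that of Akr1c6, the liver member that interconverts androgens and oestrogens with weaker forms at the seventeenth carbon. Its expression values were 851, 971 and 933 in normal livers 1, 2 and 3 and 91.8, 321 and 341 in tumors 1, 2 and 3. The groups were apart, and tumor 1 was the lowest by far. The log2 fold change was -2.09 ± 0.49 (standard error, limma's adjusted p = 0.0210). It was -1.47 without tumor 1 and remained called, while without normal liver 1, 2 or 3 in turn the adjusted p was 0.0562, 0.0647 and 0.0596.

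Akr1c20, which lies next to Akr1c6 and is also expressed in liver, had 2 probes that gave different results. Both were matched by the gene name of the array's design. The brighter one, designed on a cDNA clone, read 179, 199 and 187 in normal livers and 31.5, 73.9 and 71.3 in tumors. All tumors were below all normal livers on this probe, with a change of -1.78 ± 0.33 on the log2 scale (standard error, limma's adjusted p = 0.00951). The dimmer one, designed on a RefSeq transcript, read 0.760, 1.06 and 0.760 in normal livers and 0.445, 0.897 and 0.568 in tumors. The groups overlapped on it, with a log2 fold change of -0.48 (95% interval -1.15 to 0.19, adjusted p = 0.233). With the mean of both probes the log2 fold change was -1.13 (adjusted p = 0.0254), so the size of the fall depended on the probe. Akr1c20 stayed called without any 1 of the 6 arrays.

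Akr1c19, a hydroxysteroid dehydrogenase of liver that prefers NAD, read 20.4, 28.8 and 16.2 in normal livers and 3.05, 7.96 and 7.44 in tumors. The groups were apart, tumor 1 again being lowest, and the log2 fold change was -1.91 ± 0.41 (standard error, limma's adjusted p = 0.0151). Akr1c14, which reduces dihydrotestosterone and other dihydrosteroids at the third carbon, read 17.2, 22.7 and 18.3 in normal livers and 5.20, 10.0 and 9.68 in tumors. Its log2 fold change was -1.28 (standard error 0.28, adjusted p = 0.0156), with the same tumor lowest. Both calls were lost without normal liver 2, which left a log2 fold change of -1.69 (adjusted p = 0.0519) for Akr1c19 and -1.16 (adjusted p = 0.0555) for Akr1c14.

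Akr1c12 and Akr1c13, the pair with nearly the same promoter, differed least among the Akr1c genes whose normal livers were above background, taking the brighter probe of Akr1c20. Akr1c12 read 7.64, 7.90 and 8.29 in normal livers and 4.10, 5.41 and 6.36 in tumors. Akr1c13 read 51.2, 58.9 and 59.1 in normal livers and 38.9, 47.3 and 48.6 in tumors. In both the tumors lay below the normal livers, by little in Akr1c13. The log2 fold change was -0.61 ± 0.18 (standard error, limma's adjusted p = 0.0391) for Akr1c12 and -0.33 (95% interval -0.65 to -0.01, adjusted p = 0.104) for Akr1c13. That one passed the threshold and the other did not is no test of a difference between them, which was not tested. The call of Akr1c12 was also lost when any normal liver, tumor 1 or tumor 2 was left out (adjusted p 0.0618 to 0.101), with quantile normalization (adjusted p = 0.0587) and with scaling by spike-in controls (log2 fold change -0.43, adjusted p = 0.274).

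**Figure D2:**
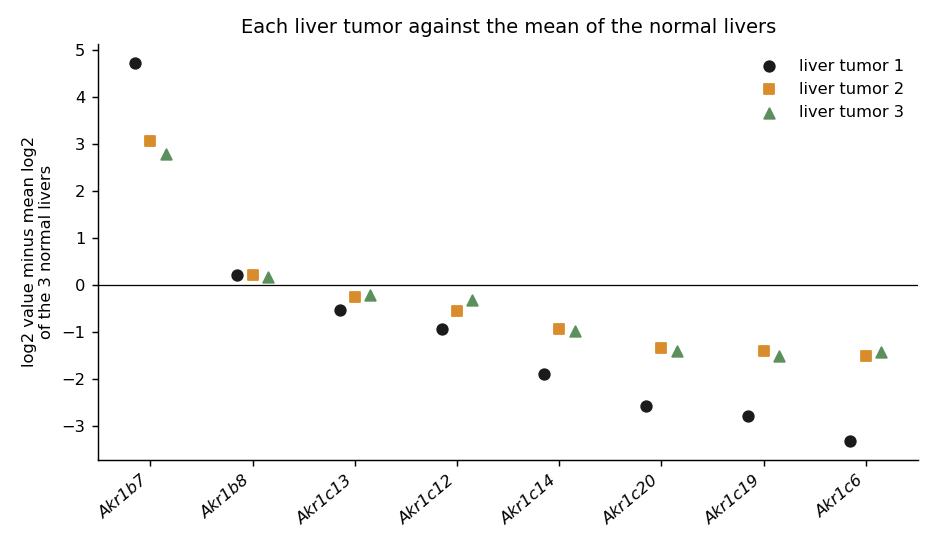
Log2 value of each liver tumor minus the mean log2 value of the 3 normal livers (vertical axis) for the 8 tested members other than Akr1c18, with 1 symbol per tumor. Tumor 1 is the lowest for the 6 Akr1c genes, from -3.32 for Akr1c6 to -0.53 for Akr1c13, and the highest for Akr1b7, at 4.73.

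The tumors differed among themselves in the lower members. Tumor 1 was the lowest of the 3 tumors in all 6 tested Akr1c genes other than Akr1c18, by 3.32 below the normal mean on the log2 scale in Akr1c6, where tumors 2 and 3 were 1.52 and 1.43 below. In Akr1c20 the tumors were 2.58, 1.35 and 1.40 below, and in Akr1c19 2.80, 1.41 and 1.51 below. This order was common on these arrays: of the 3901 genes called lower in the tumors, tumor 1 was the lowest in 66.8%, tumor 2 in 19.1% and tumor 3 in 14.2%. Akr1b7 went the other way, with tumors 4.73, 3.06 and 2.78 above the normal mean, while Akr1c18 (10.33, 10.44 and 10.18 above) and Akr1b8 (0.22, 0.21 and 0.16 above) differed little between tumors. In a whole tissue, fewer cells that express a gene and less RNA per cell cannot be told apart.

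Along chromosome 13, Akr1c18 is flanked by Akr1c14, which fell, and by Akr1c13, which did not pass the test. The gene spans 4132615 to 4150646, between Akr1c14, which ends at 4090560, and Akr1c13, which begins at 4191168. Within 500 kb on either side of the cluster, 5 of the 21 genes that are no aldo-keto reductases were tested. Asb13, which encodes an ankyrin repeat and SOCS box protein, fell (log2 fold change -0.56, standard error 0.15, limma's adjusted p = 0.0309), a call kept only without tumor 3 when 1 array was left out, and lost with quantile normalization (adjusted p = 0.0504) and spike-in scaling (adjusted p = 0.323). The other 4 were not called. Akr1e1, which reduces anhydrofructose, had a log2 fold change of -0.34 with an interval from -3.35 to 2.66, since tumor 3 read 6.94 and tumors 1 and 2 read 0.271 and 0.504, and it was 0.59 without tumor 1.

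**Figure D3:**
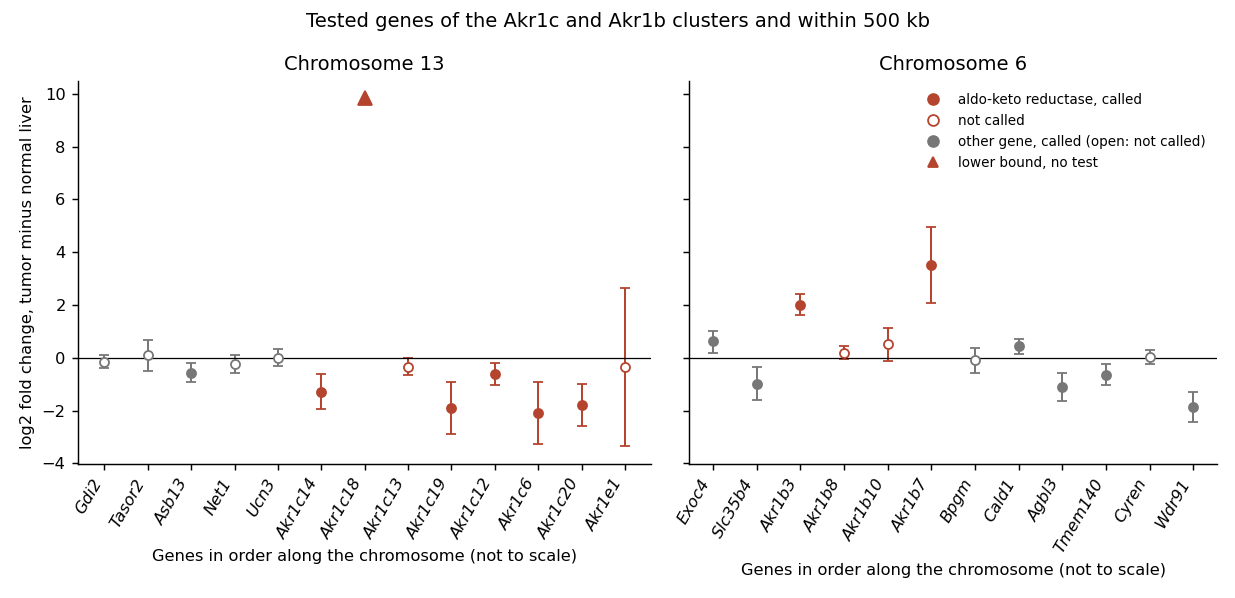
Log2 fold change of liver tumor against normal liver (vertical axis, bars are 95% confidence intervals) for the tested genes in and around the 2 clusters, in chromosome order and not to scale. Filled points passed the test, open ones did not, and the triangle is the lower bound of Akr1c18, 9.83, beside neighbours between -2.09 and -0.33 in the Akr1c cluster. Akr1b7 is drawn filled at 3.52, but it passed the filter through the tumors alone and so had to differ. Its normal livers were at background, and its lower bound was 2.61.

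The Akr1b genes lie on chromosome 6 in the order Akr1b3, Akr1b8, Akr1b10 and Akr1b7. Akr1b3, aldose reductase, which turns glucose into sorbitol, read 6.17, 6.23 and 8.27 in normal livers and 24.2, 27.1 and 31.4 in tumors. All tumors were above all normal livers, and the log2 fold change was 2.01 ± 0.17 (standard error, limma's adjusted p = 6.8e-04). A second probe gave 1.89 (standard error 0.20, adjusted p = 0.00151). Akr1b10 did not pass the test, with 0.51 on each of its 2 probes (adjusted p 0.127 and 0.178). Of 8 tested genes around this cluster that are no aldo-keto reductases, 2 were higher and 4 lower, beside 13.1% and 21.0% of all tested genes. Exoc4, an exocyst subunit, rose by 0.62 and Cald1, caldesmon, by 0.43 on the log2 scale. Wdr91, an endosomal protein, fell by 1.88, Agbl3, a carboxypeptidase, by 1.09, Slc35b4, a nucleotide sugar transporter, by 0.98, and Tmem140 by 0.64. The adjusted p of these 6 genes ran from 0.00289 to 0.0366. Of the 7 neighbours called around both clusters, 2 or 3 were called when any array other than tumor 3 was left out. Wdr91 and Agbl3 kept their calls without any 1 array, while those of Exoc4, Cald1, Slc35b4 and Tmem140 were lost without 4 or more of the 6 in turn. Cald1, Slc35b4 and Tmem140 were not called with spike-in scaling (adjusted p 0.069 to 0.260) and Exoc4 was not with normexp (adjusted p = 0.110).

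Outside the Akr1c and Akr1b groups, Akr1d1 and Akr1a1 fell. Akr1d1, the steroid reductase of bile acid synthesis, read 1.63, 2.46 and 1.66 in normal livers and 0.212, 0.635 and 0.662 in tumors. The groups were apart, with a change of -2.07 ± 0.46 on the log2 scale (standard error, limma's adjusted p = 0.0166). Akr1a1, an aldehyde reductase that also serves vitamin C synthesis in mice, read 96.2, 111 and 97.8 in normal livers and 54.9, 65.2 and 71.2 in tumors. All tumors were again lower, by a log2 fold change of -0.68 (standard error 0.14, adjusted p = 0.0130). Akr7a5, an aflatoxin aldehyde reductase, had -0.34 (adjusted p = 0.0608). In all, 1 of the 6 other aldo-keto reductases that were tested was higher and 2 were lower, with a median log2 fold change of -0.34. All tested genes had 13.1% higher, 21.0% lower and a median of -0.13. Neither of the 2 lower calls held without normal liver 2 (adjusted p = 0.0506 for Akr1a1 and 0.0576 for Akr1d1). Akr1a1 was also not called with spike-in scaling (adjusted p = 0.180), and Akr1d1 was at -1.32 with normexp. The remaining 4, Akr1cl, Kcnab1, Kcnab2 and Kcnab3, were too dim to test.

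Enzymes of other families that share steroid substrates with the Akr1c group changed both ways. Over all tested genes 13.1% were higher and 21.0% lower, with a median log2 fold change of -0.13. Of 19 tested steroid dehydrogenases and reductases, 5 were higher and 8 lower, with a median log2 fold change of -0.85. The largest falls among the called genes were Hsd3b2, of the family that forms progesterone and other ketosteroids, at -2.50 (standard error 0.40, limma's adjusted p = 0.00604), and Srd5a1, a steroid reductase, at -2.25 (standard error 0.51, adjusted p = 0.0188). The largest rises were Dhrs9, a retinol and hydroxysteroid dehydrogenase, at 2.85 (standard error 0.26, adjusted p = 9.7e-04), and Srd5a2, the sister enzyme of Srd5a1, at 1.26 (standard error 0.15, adjusted p = 0.00252). Srd5a1 was at -1.61 without tumor 1 and lost its call without normal liver 1, 2 or 3 (adjusted p 0.0535 to 0.0564). Hsd3b5, a male liver member of the Hsd3b family, named here after its values were seen, read 259, 211 and 303 in normal livers and 0.0299, 23.2 and 31.3 in tumors. The groups were apart, and tumor 1 was not well above background. The change of -6.51 was not called (limma's adjusted p = 0.0963), and it was -3.24 without tumor 1 (adjusted p = 7.2e-04). Hsd3b5 was called with normexp (-5.11, adjusted p = 0.022) and spike-in scaling (-6.34, adjusted p = 0.0235). Quantile normalization (adjusted p = 0.109) and no filter (adjusted p = 0.191) left it uncalled.

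Prostaglandins are the other main substrates of these enzymes. Of 11 tested genes of prostaglandin synthesis and breakdown, 1 was higher and 7 lower, with a median of -0.56. All tested genes had 13.1% higher, 21.0% lower and a median of -0.13. Of the prostaglandin genes, 4 in all were called without normal liver 2 or tumor 2, and 5 without normal liver 3. Ptgds, a prostaglandin D synthase, had -3.82 (standard error 0.77, limma's adjusted p = 0.0125), and Hpgd, which inactivates prostaglandins, -1.56 (standard error 0.37, adjusted p = 0.0220). Tumor 1 was not well above background for Ptgds, whose change was -2.94 without it and -2.04 with normexp, and Hpgd was not called without normal liver 2, normal liver 3 or tumor 2 (adjusted p 0.0520 to 0.0725). Ptgr1, a prostaglandin reductase, had 2.43 (standard error 0.12, adjusted p = 1.2e-04), with 0.678, 0.684 and 0.653 in normal livers against 3.52, 3.29 and 4.12 in tumors.

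Carbonyl and aldehyde enzymes of other families had 3 genes higher and 9 lower of 20 tested, with a median of -0.32. All tested genes had 13.1% higher, 21.0% lower and a median of -0.13. Of the carbonyl and aldehyde enzymes, 6 in all were called without normal liver 2 and 8 without normal liver 3. Aldh1a1, a retinal dehydrogenase, had -2.54 (standard error 0.55, limma's adjusted p = 0.0155) and Adh4, an alcohol dehydrogenase, -2.35 (standard error 0.44, adjusted p = 0.01). Aldh1b1, a mitochondrial aldehyde dehydrogenase, had 1.59 (standard error 0.14, adjusted p = 9.0e-04) and Aldh3b1, another aldehyde dehydrogenase, 1.19 (standard error 0.26, adjusted p = 0.0162). Aldh1a1 was at -1.87 without tumor 1, and without normal liver 2 neither Aldh1a1 (adjusted p = 0.0546) nor Aldh3b1 (adjusted p = 0.0575) was called.

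Several aldo-keto reductases are known targets of the antioxidant factor Nrf2 or of nuclear receptors, and the genes of those pathways were counted too. Of 18 tested Nrf2 targets, 3 were higher and 4 lower, with a median of -0.43. Over all tested genes 13.1% were higher and 21.0% lower, with a median of -0.13. Of the Nrf2 targets, 2 in all were called without normal liver 1, 2 or 3 in turn. G6pdx, which supplies NADPH, rose by 3.67 (standard error 0.22, limma's adjusted p = 2.2e-04) and Srxn1, sulfiredoxin, by 1.64 (standard error 0.46, adjusted p = 0.0368) on the log2 scale. Aox1, an aldehyde oxidase, and Ugdh, which supplies glucuronic acid, had -1.81 (adjusted p = 0.0425) and -1.33 (adjusted p = 0.0297). Without normal liver 1, 2 or 3 in turn, Srxn1, Aox1 and Ugdh were not called (adjusted p 0.0512 to 0.121). Of 9 tested xenobiotic and sterol receptor genes and targets, 1 was higher and 4 lower, with a median of -0.36, beside the same shares. In all, 3 of them were called without normal liver 3 or any 1 tumor. Nr1i3, the receptor CAR, had -2.35 (standard error 0.23, adjusted p = 0.00131), Nr1h4, the bile acid receptor FXR, -1.22 (adjusted p = 0.0101), and Cyp2b10, a target of CAR, 1.37 (adjusted p = 0.0435). Cyp2b10 was not called without normal liver 3 or any 1 tumor (adjusted p 0.0615 to 0.115).

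Akr1c18 is repressed by prolactin in the ovary, so genes of prolactin and progesterone signalling were included. Of 9 tested, 3 were lower and 6 not called, with a median of -0.46, beside 21.0% lower and a median of -0.13 over all tested genes. In all, 2 of the 9 were called without normal liver 2. Prlr, the prolactin receptor, read 12.98, 19.9 and 18.9 in normal livers and 1.21, 3.95 and 4.37 in tumors. It was lower in all tumors, with a change of -2.62 ± 0.50 on the log2 scale (standard error, limma's adjusted p = 0.0103). Without tumor 1 it was at -2.03. Pgrmc1, a progesterone-binding membrane protein, had -0.95 (standard error 0.15, adjusted p = 0.00532). Pgr, the progesterone receptor, was too dim to test.

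**Figure D4:**
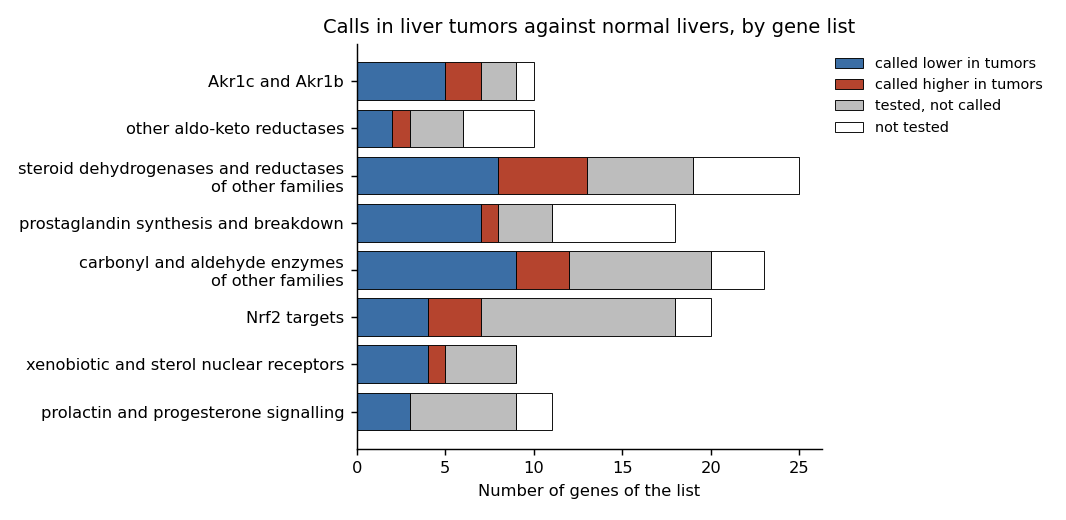
Number of genes (horizontal axis) called lower (blue), called higher (red), tested and not called (grey) or not tested (white) in liver tumors against normal livers, for the Akr1c and Akr1b genes and the 7 other gene lists. The Akr1c and Akr1b genes had 5 lower and 2 higher calls of 9 tested, beside 21.0% lower and 13.1% higher over all tested genes. The higher ones are Akr1c18, whose values chose the family, and Akr1b7, which like it passed the filter through the tumors alone. Both had to differ, and nothing is read from these counts.

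By the smallest root mean square difference of log2 values over the 6 arrays, each gene centred on its own mean, the genes whose pattern was most like that of Akr1c18 were Erich4 (0.15), Afp (0.93), H19 (0.95), Inava (0.98) and Slpi (1.0). Erich4 read 0.0362, 0.0296 and 0.0261 in normal livers, none well above background, and 36.5, 40.3 and 33.99 in tumors. On the processed signal the difference was thus at least 325-fold for Erich4 and at least 82.3-fold for Inava, 8.34 and 6.36 on the log2 scale. With normexp it was 6.56 and 4.55, less than these bounds. Afp, the fetal serum protein, read 0.132, 0.149 and 0.706 in normal livers and 190, 181 and 134 in tumors. The likeness is a description of 6 arrays in 2 groups, with no test.

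The tissue label was checked against markers. All 10 hepatocyte markers were well above background on all 6 arrays, and their summed value was 8150 to 8720 in normal livers and 8130 to 8530 in tumors. Alb, albumin, had a log2 fold change of -0.06 and Hnf4a, a hepatocyte transcription factor, 0.16, and neither was called (adjusted p = 0.760 and 0.436). Of the 10, Cps1 (-1.48), Tat (-1.43) and Serpinc1 (-0.50) were lower and Apoa1 (0.90) higher. Akr1c18 and Akr1b7 are also known from steroid-forming cells and the gut. Of 10 markers of adrenal and gonadal steroid cells, 7 were not well above background on any array, among them Star, Cyp11a1 and Lhcgr. The sum of the 10 was 28.1 to 33.7 in normal livers and 33.4 to 36.9 in tumors. Cyp17a1, Cyp21a1 and Nr5a1 were well above background on all 6 arrays. Most of the sum was Cyp17a1, with 29.6, 24.7 and 24.0 in normal livers and 34.25, 31.15 and 30.6 in tumors. Cyp17a1 (0.30) and Cyp21a1 (0.14) were not called, and Nr5a1 was lower (-0.57, limma's adjusted p = 0.0454). Of 7 intestinal markers on the array, Cdx1, Cdx2, Sis and Alpi were not well above background on any array, while Vil1 and Fabp2 were higher and Lgr5 lower in tumors, and the sum went from 54.4 to 82.2 in normal livers to 113 to 140 in tumors.

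Summed markers of other cells also differed between the groups, and a sum follows its brightest gene. The sum of 7 cholangiocyte markers was 2.47 to 3.09 in normal livers and 36.5 to 63.2 in tumors. Most of the tumor sum was Tspan8, the only one called, with 0.112, 0.160 and 0.139 in normal livers and 42.0, 34.7 and 61.0 in tumors. The tumor means of Krt7, Krt19, Epcam, Sox9, Cftr and Spp1 were below their normal means, and none of these was called. The sum of 8 macrophage markers was 73.4 to 117 in normal livers and 37.2 to 58.7 in tumors. Of 7 tested macrophage markers 5 were lower, beside 21.0% of all tested genes. For 8 lymphocyte markers the sums were 66.1 to 70.0 and 141 to 245, of which Cd4 alone was called, and Cd3e, Cd79a and Cd79b were not. Cd4 made up most of these sums, with 60.9, 58.8 and 58.8 in normal livers and 235, 184 and 134 in tumors. For 8 stellate cell and fibroblast markers they were 7.24 to 11.3 and 11.6 to 16.7, with Col1a1 and Reln higher and Lrat, Des and Pdgfrb lower. Endothelial sums were 111 to 125 and 93.4 to 102, with Stab1 (0.66) higher, Stab2 (-0.78) and Clec4g (-0.49) lower and the other 5 markers not called. Of 6 adipocyte markers 5 were not well above background on any array, with Cidea higher in tumors. The part of these cells in the values of the Akr1c and Akr1b genes was not tested.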

How the data were processed

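RNA of 3 normal livers and 3 liver tumors was measured on arrays, and the sample titles gave the groups. The methods state the Ha-ras mutation of the tumors. Scanner output was deposited for each array, made with Feature Extraction 10.7.3.1 per the file headers (12.0.3.1 in the submitters' processing notes). Its processed intensity had the background subtracted and spatial trends removed by the authors. A second deposited table gives the ratio of this signal to the array's 75th percentile. It matched that ratio computed over all spots for 100% of values, within 0.01 or 1%, and served as an alternative. Every column of it belonged to a sample.

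Each deposited intensity was divided by its array's 75th percentile and put on the log2 scale. Control spots and outlier spots were left out, spots of a probe were averaged, and limma 3.58.1 (lmFit and eBayes, R 4.3.3) was run two-sided on the 24901 probes that passed the well-above-background mark in each sample of one tissue or the other. Adjustment was by Benjamini-Hochberg, and an adjusted p under 0.05 made a call. For genes with several probes, the brightest by mean log2 signal stood for the gene. Fold changes are log2 tumor minus normal liver. On arrays, 42.7% to 45.0% of spots were well above background in normal livers and 45.2% to 46.7% in tumors, 0 were saturated, and the median local background was 42 to 45 on slide 1 and 22 to 23 on slide 2. The number of arrays limits the precision. Nothing in the labels says that the tissues came from different animals, and p-values measure the spread between these samples.

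Probes were named by RefSeq annotation of GRCm38.p6 through the accession (27235 probes), the symbol (3581) or a synonym (565), and 24300 kept the design's name. Promoters are those of RefSeq, and proteins were not used here, so that a planned comparison of protein identity was not run. The members and gene lists were chosen with earlier results of these data known. The text names all aldo-keto reductases, up to 2 called genes per direction with the largest change in each other list, the 5 genes most like Akr1c18, the called neighbours within 500 kb, Alb and Hnf4a. Markers, a few list genes below background, Hsd3b5 and Gldn were named after their values were seen. A planned cell type marker is not reported here. Alternatives were normexp with an offset of 50, quantile normalization, spike-in scaling, the deposited table, no filter and a filter on all 6 arrays, eBayes with a trend, the replicate block, the methods' t-test unpaired and paired on linear values, the mean of a gene's probes, and leaving out each array. Python 3.11.15, pandas 2.3.3, numpy 2.4.6 and matplotlib 3.10.9 were used, and the fit was tested on simulated data.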

Additional observations from a re-analysis of the deposited data

How the results depend on the processing

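No result of the members changed direction under any alternative. The 8239 probes called, 3112 higher and 5127 lower, became 5125 (3173 and 1952) with spike-in scaling, which moved the median log2 fold change of all tested probes from -0.13 to 0.05, 4674 (2071 and 2603) with no filter, and 5259, of them 1739 higher, in the unpaired methods' t-test after adjustment. That test, paired and adjusted, called 0 probes (7419 unadjusted), and so 0 members, other aldo-keto reductases or neighbours. Lower members (5) were 2 with no filter and 3 in the adjusted unpaired test. In the fit reported above, the only higher call besides Akr1c18 was that of Akr1b7. In settings that keep the filter it had to differ, so its calls there show no stability, and the strict filter leaves it untested. Lower other aldo-keto reductases (2) were 1 with spike-in scaling and 0 with no filter, and called neighbours (7) were 3 with spike-in scaling, 2 with no filter and 1 in the adjusted unpaired test. Akr1c18 moved to 7.62 with normexp. With no filter, Akr1c6 (-2.09, adjusted p = 0.0607), Akr1c12 (-0.61, 0.122) and Akr1c14 (-1.28, 0.0514) were not called. Akr1c12 was also lost with quantile normalization (-0.51) and spike-in scaling (-0.43). In the adjusted unpaired test Akr1c12 (-0.59) and Akr1c19 (-1.83) were lost, and Akr1b7 (3.67) was lost in each form of the test. In the adjusted paired test Akr1c6 (-1.87), Akr1c12 (-0.59), Akr1c14 (-1.23), Akr1c19 (-1.83) and Akr1c20 (-1.68) were lost. Akr1c13 (-0.33) passed unadjusted in both forms, and Akr1b8 (0.20) passed unadjusted in both and adjusted in the unpaired one. The cause of these shifts was not tested. Leaving out 1 array gave 4954 to 7171 calls (2346 to 2804 higher, 2608 to 4367 lower). Lower members ran from 1 to 5 and called neighbours from 2 to 6. Other aldo-keto reductases ran from 1 to 2 higher and from 0 to 2 lower. List calls ran from 9 to 12 for steroid enzymes, 4 to 9 for prostaglandin genes, 6 to 11 for carbonyl enzymes, 2 to 9 for Nrf2 targets, 3 to 4 for nuclear receptors and 2 to 4 for prolactin and progesterone genes. Fold changes ran from -2.42 to -1.47 for Akr1c6, -0.75 to -0.44 for Akr1c12, -0.40 to -0.23 for Akr1c13, -1.44 to -0.97 for Akr1c14, 10.16 to 10.48 for Akr1c18, -2.15 to -1.46 for Akr1c19, -1.99 to -1.38 for Akr1c20, -0.76 to -0.25 for its second probe, 2.92 to 3.90 for Akr1b7 and 0.18 to 0.21 for Akr1b8. Deviations of same-numbered samples from their group means correlated at 0.066, 0.182 and 0.055, so the numbers were not taken as pairs. With the replicate block 7021 probes were called and 5 members were lower, with no change of a member's call.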
